A study of Canis lupus familiaris with 16 samples.

Results

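TEK, TIE1 and FLT1 are 3 of the 24580 genes in a table of RNAseq values from 13 canine meningiomas and from the normal meninges of 3 control dogs. They encode receptor tyrosine kinases of blood vessel endothelium, and were found in the table by their Ensembl identifiers, ENSCAFG00000001713 for TEK, ENSCAFG00000005288 for TIE1 and ENSCAFG00000006701 for FLT1. They were taken from the study's list of genes underexpressed in meningioma, which was made on these same libraries. The difference between meningioma and control therefore chose them, and is given below as a description without a test. The spread between libraries entered the test behind that list as well, but the correlation of the genes with each other did not.

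TEK (also called TIE2) is the receptor for the angiopoietins, which hold mature vessels in a quiet state or loosen them for sprouting. TIE1 has a similar structure but no well-established ligand of its own, and acts mainly by joining TEK at the cell surface. FLT1 (VEGF receptor 1) binds VEGFA, VEGFB and placental growth factor. It signals weakly, and with its soluble form it holds VEGFA away from KDR, the main signaling receptor of this ligand. All of these receptors are known chiefly from endothelial cells, although FLT1 is also found on other cells, such as monocytes.

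The tumors were surgical biopsies and comprised 6 grade I meningiomas, of which 5 were transitional and 1 was meningothelial, and 7 grade II (atypical) meningiomas. The paper states that other sequenced tumor samples had been left out, for low mapping, as outliers in a principal components analysis or for a revised diagnosis. The spread and the correlations between tumors given below therefore hold for the samples that were kept. RNA came from formalin-fixed, paraffin-embedded tissue for 11 of the tumors and from frozen tissue for 2. As controls, frozen leptomeninges of 3 healthy beagles from a research colony were used. Breed and the way the tissue was obtained thus cannot be told apart from the diagnosis. Fixation differed from the controls in 11 of the 13 tumors, and its part in the group differences was not tested. Libraries are numbered from 0 within each group in the deposited table, and its labels do not pair these numbers with a dog, a grade or a preservation method, so the grades were not compared. The depth of the meningioma libraries, as the sum of their fragments over genes, was 2138741 to 7358925 with a median of 4095984, and that of the controls was 2269204, 4467660 and 7054614. Meningioma libraries 2 and 12 stood apart from the other tumors in an earlier analysis of the same table. The fold changes of the receptors, the correlations between them and those with a mean of endothelial genes are given with and without these libraries.

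TEK, the angiopoietin receptor, was lower in each tumor than in any control. Its level was 55.0, 44.3 and 72.8 FPKM (fragments scaled for transcript length and sequencing depth) in control libraries 0, 1 and 2, with a mean of 57.4 ± 14.4 (SD, n = 3). In the meningiomas it was lowest in library 10 at 3.71 FPKM, had a median of 9.07 FPKM and was highest in library 6 at 20.7 FPKM, with a mean of 10.3 ± 5.22 (SD, n = 13). All tumors lay below all controls, and the lowest control was 2.14 times the highest tumor. The tumors held between 6.46% and 36.1% of the mean control level, with a median of 15.8%. These values rest on 33 to 327 fragments in the meningiomas and on 451, 1394 and 1592 fragments in the controls.

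TIE1 was the least abundant of the receptors, below TEK and FLT1 in each of the 16 libraries. Control libraries 0, 1 and 2 had 17.3, 11.7 and 25.3 FPKM, with a mean of 18.1 ± 6.83 (SD, n = 3). The meningiomas ranged from 0.813 FPKM in library 0 to 4.26 FPKM in library 6, with a median of 1.48 FPKM and a mean of 1.93 ± 1.06 (SD, n = 13). The groups did not overlap, and the lowest control was 2.74 times the highest tumor. Relative to the mean control level the tumors held 4.49% to 23.6%, with a median of 8.18%. Only 12 to 77 fragments stood behind each meningioma value, with a median of 32, against 136 to 574 in the controls, so TIE1 was the least precisely measured of the 3 genes.

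FLT1, the VEGF receptor, lay slightly above TEK in each control and below it in most tumors. Its level was 55.8, 46.5 and 91.6 FPKM in control libraries 0, 1 and 2, with a mean of 64.6 ± 23.8 (SD, n = 3). The lowest meningioma was library 9 at 3.63 FPKM, the median was 6.21 FPKM and the highest was library 6 at 17.8 FPKM, with a mean of 7.90 ± 4.39 (SD, n = 13). Again no tumor reached a control, and the lowest control was 2.61 times the highest tumor. The tumors held 5.62% to 27.6% of the mean control level (median 9.61%), from 40 to 318 fragments each.

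**Figure D1:**
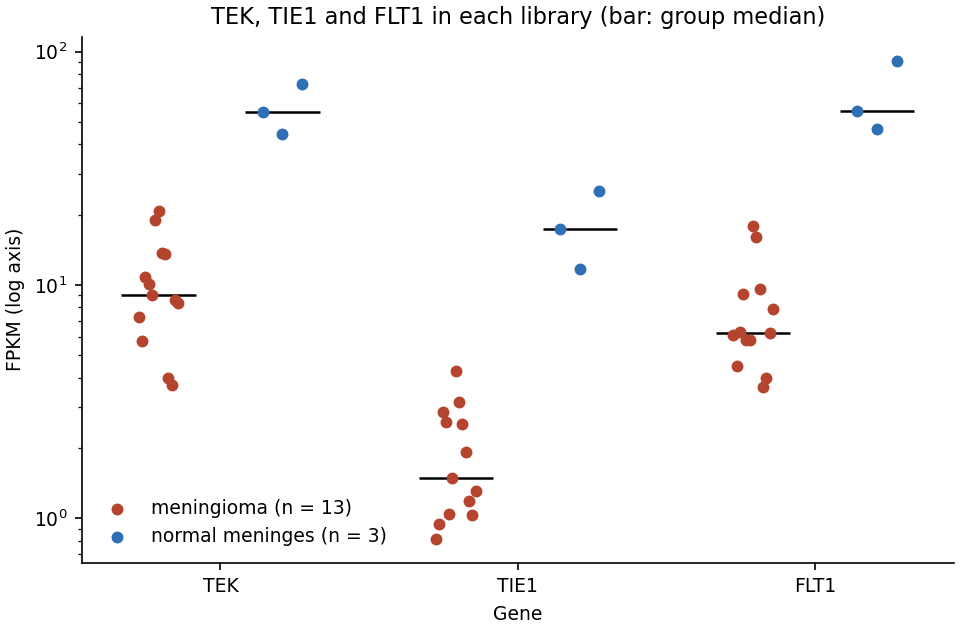
FPKM (log axis) of TEK, TIE1 and FLT1 in each library, with 13 meningiomas in red, 3 normal meninges in blue and a bar at each group's median. For each gene all red points lie below all blue points, and TIE1 lies lowest in both groups.

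Receptors that stand among the more abundant transcripts of normal meninges were thus in the middle of the range or below it in the tumors. Among genes with a mean FPKM above 0 in the controls (19812 genes), TEK stood at percentile 93.3, FLT1 at 94.3 and TIE1 at 73.1. Among such genes in the meningiomas (20252 genes) the percentiles were 60.5 for TEK, 54.9 for FLT1 and 35.2 for TIE1.

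On fragments with TMM normalization, the log2 fold change of meningioma against control was -2.46 (SE 0.36) for TEK, -3.22 (SE 0.37) for TIE1 and -3.02 (SE 0.36) for FLT1. The median over all 14345 tested genes was 0.056. Of these genes, 697 (4.86%) had a Benjamini-Hochberg adjusted p under 0.05 in edgeR's quasi-likelihood test, 509 of them (3.55% of those tested) with lower levels in meningioma, and in 524 genes (3.65%) all meningiomas lay below all controls. The 3 receptors were among each of these sets, which follows from how they were chosen. Since all 13 tumors lay below all controls for each receptor, the 2 frozen tumors did so too. The number of genes called rested heavily on the controls, and was 245, 350 or 169 when control library 0, 1 or 2 was left out. The fold changes of the receptors themselves moved less, to between -2.61 and -2.27 for TEK, -3.45 and -2.91 for TIE1 and -3.20 and -2.69 for FLT1 when any 1 of the 16 libraries was left out. Without meningioma libraries 2 and 12 they were -2.45 for TEK, -3.24 for TIE1 and -2.99 for FLT1.

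In bulk RNA, fewer cells of a type and less RNA per cell cannot be told apart. The values of cell type markers are therefore given beside the receptors. All 17 endothelial markers with an identifier, TEK, TIE1 and FLT1 not counted, were lower in meningioma (edgeR, adjusted p under 0.05), with a median log2 fold change of -2.71. Their summed level was 67.6 to 237.0 FPKM in the meningiomas and 558.4 to 889.7 FPKM in the controls. The 6 mural cell markers (smooth muscle cells and pericytes around vessels) were also all lower, with sums of 14.5 to 54.4 FPKM against 131.0 to 327.0 FPKM, as were 10 of 12 fibroblast and leptomeningeal genes, with sums of 226.9 to 559.7 FPKM against 1887 to 2747 FPKM. PDPN, a marker of arachnoid cells and of lymphatic endothelium, lay between 44.1 and 478.1 FPKM in the tumors and between 16.9 and 44.6 FPKM in the controls. None of the endothelial, mural or fibroblast markers was at 0 in any control, and none of the endothelial or mural markers was at 0 in any tumor. The genes of these lists have a symbol paired with an identifier only because the study had picked them from the same libraries, so their direction is not independent evidence, and the part that cell composition plays in the receptor levels was not tested.

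Within each library the receptors can be compared with each other, since each FPKM value is scaled for transcript length. The ratio of FLT1 to TEK was 1.01, 1.05 and 1.26 in the 3 controls. In the meningiomas it ran from 0.307 in library 5 to 1.17 in library 7, with a median of 0.839. It exceeded 1 in 2 of the 13 tumors (libraries 7 and 10), and 11 tumors lay below the lowest control. By FPKM, TEK was therefore the higher of this pair in most tumors, while FLT1 was in all controls. Some ratios lay near 1, at 0.911, 0.915 and 0.943 in tumor libraries 3, 9 and 12 and 1.01 in control library 0. Whether they differ from 1 was not tested. In fragments, which are not scaled for length, FLT1 exceeded TEK in tumor libraries 3, 7, 9, 10 and 12 and in all controls.

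The ratio of TEK to TIE1 was 2.88, 3.18 and 3.80 in the controls and 2.08 to 12.8 in the meningiomas, with a median of 5.33. It lay above the highest control in 10 tumors and below the lowest in 1, library 9. The ratio of FLT1 to TIE1 was 3.22, 3.62 and 3.98 in the controls and 1.90 to 7.49 in the tumors (median 4.18), above the highest control in 7 and below the lowest in 2. On the log2 scale the mean ratios were 2.44 ± 0.72 in meningioma against 1.71 ± 0.20 in control for TEK to TIE1, 2.06 ± 0.57 against 1.85 ± 0.15 for FLT1 to TIE1, and -0.38 ± 0.49 against 0.14 ± 0.17 for FLT1 to TEK (SD, n = 13 and n = 3). The ratios thus differed more from tumor to tumor than among the controls, and the meningioma and control ranges overlapped for each ratio. The tumor ratios rest on fewer fragments. The number of fragments alone would give a log2 SD of 0.27 for TIE1 in the tumors and 0.09 in the controls. For TEK these values are 0.13 and 0.05, and for FLT1 0.14 and 0.05. The part of counting in the spread of the ratios was not tested. The ratios come from the contrast that chose the genes, and were not tested.

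**Figure D2:**
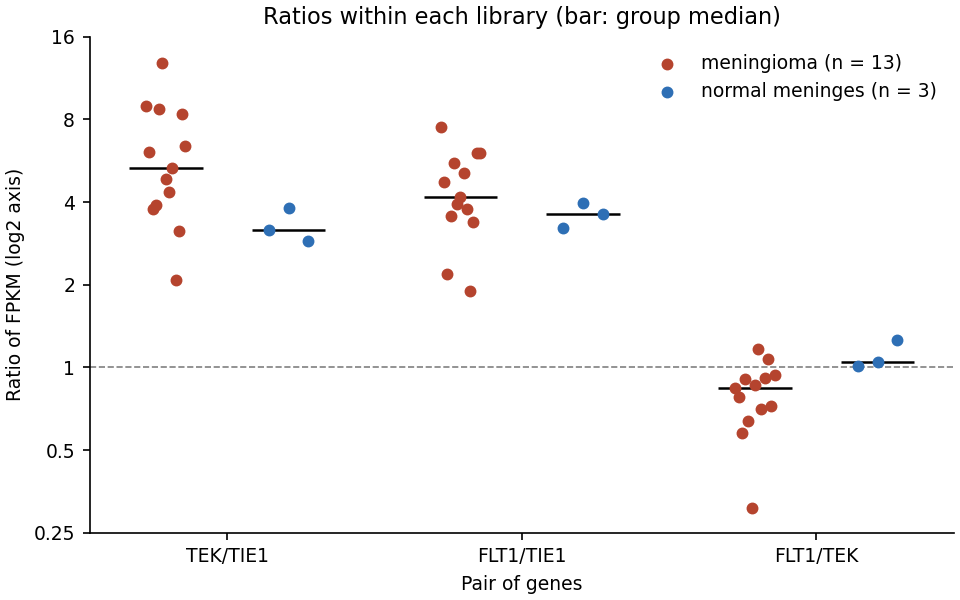
Ratio of FPKM between receptors within each library (log2 axis), with meningiomas in red, normal meninges in blue, a bar at each group's median and a dashed line at a ratio of 1. The 3 controls lie close together for each ratio, and 11 of 13 meningiomas lie below all controls for FLT1 to TEK.

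Of 47 genes listed for the angiopoietin and VEGF receptor pathways, 13 had an identifier paired with a symbol, namely the 3 receptors and 10 others. The ligands (ANGPT1, ANGPT2, VEGFA and PGF among them), the sister receptors KDR and FLT4 and the neuropilins had none and were not analysed here. All 10 of the other genes were lower in meningioma (edgeR, adjusted p under 0.05), none was higher, and in all 10 no meningioma reached a control. Their median log2 fold change was -2.42. As with the markers, the study had chosen these genes on these libraries for being lower, so the count is not independent of the direction.

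Among the genes that act on the receptors or their ligands, PTPRB, the endothelial phosphatase that removes phosphate from TEK, had a log2 fold change of -2.52 (SE 0.33). It went from 27.5 to 53.4 FPKM in the controls to 3.07 to 13.1 FPKM in the meningiomas. MMRN2, an endothelial matrix protein that binds VEGFA, fell by 3.80 (SE 0.48) on the log2 scale, and CD93, the endothelial lectin receptor to which it binds, fell by 3.20 (SE 0.44). The change of THBS1, a secreted inhibitor of angiogenesis, was -3.90 (SE 0.55), with controls as far apart as 119.9 and 831.7 FPKM.

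The 5 genes of downstream signaling had changes from -3.45 to -1.60. PRKD1, a kinase that VEGF signaling activates in endothelium, stood at -3.45 (SE 0.48), and PIK3R1, the regulatory subunit of PI3 kinase, at -2.32 (SE 0.34). NOS3, the nitric oxide synthase of endothelium, had -2.26 (SE 0.43), ARAP3, a GTPase regulator controlled by PI3 kinase, -2.21 (SE 0.29), and the adaptor SHE -1.60 (SE 0.34). The transcription factor ETS1, active in endothelium and in many other cells, had the smallest change of the 10 genes at -1.52 (SE 0.35). The calls of SHE, ETS1 and NOS3 depended on the controls. Without control library 2, the adjusted p was 0.0974 for SHE, 0.176 for ETS1 and 0.0834 for NOS3, and 7 of the 10 genes were called. SHE was not called without control library 0 (adjusted p = 0.0576), nor ETS1 without control library 1 (adjusted p = 0.0624), and without meningioma libraries 2 and 12 all 10 were called.

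**Figure D3:**
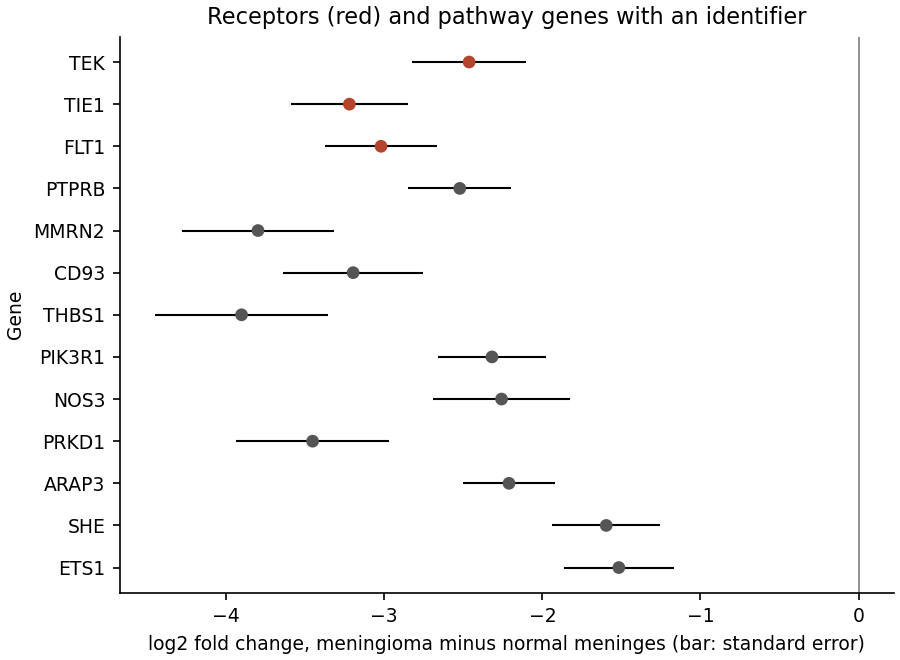
Log2 fold change of meningioma against normal meninges for TEK, TIE1 and FLT1 (red) and the 10 other pathway genes with an identifier (grey), with bars of 1 standard error. All points lie left of 0, from -3.90 for THBS1 to -1.52 for ETS1.

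Between tumors the receptors varied about as much as each other and more than counting alone would give. The highest meningioma was 5.59 times the lowest for TEK, 5.24 times for TIE1 and 4.91 times for FLT1, and the coefficients of variation were 50.5%, 55.0% and 55.5%. On the log2 FPKM scale the SD between tumors was 0.76 for TEK, 0.77 for TIE1 and 0.70 for FLT1, while the number of fragments alone would give an SD of 0.13, 0.27 and 0.14. In TMM-normalized CPM (fragments scaled for depth only, log2) the SD of TEK, TIE1 and FLT1 stood at percentile 63.7, 63.1 and 59.3 of all tested genes, and on log2(FPKM + 1) at percentile 72.1, 49.1 and 65.9. The receptors were therefore near the middle of the tested genes in their variability or somewhat above it.

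Library 6 had the highest level of all 3 receptors, and library 7 ranked 3 for TEK and 2 for TIE1 and FLT1. The low end was less uniform. Libraries 9 and 10 were the lowest for both TEK and FLT1, with 3.97 and 3.71 FPKM of TEK and 3.63 and 3.98 FPKM of FLT1, yet they ranked 6 and 9 of 13 for TIE1, at 1.91 and 1.18 FPKM. Library 5 was a departure of another kind, ranking 2 for TEK at 19.0 FPKM but 7 for TIE1 at 1.48 FPKM and 9 for FLT1 at 5.82 FPKM.

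Tumors with more TEK also had more FLT1. Over the 13 meningiomas, on log2(FPKM + 1), Pearson's r was 0.77 (two-sided permutation test of 100000 pairings, p = 0.00236, Benjamini-Hochberg adjusted over the 3 pairs p = 0.0050). Spearman's rho was 0.76 (permutation p = 0.00376, adjusted p = 0.0113). When libraries 6 and 7, the farthest from the median of FLT1, were left out, r was 0.70 (permutation p = 0.0165, adjusted p = 0.0495). Without library 5 it was 0.92, and without libraries 2 and 12 it was 0.79.

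TIE1 and FLT1 were also correlated, with r = 0.74 (permutation test, p = 0.00333, adjusted p = 0.0050) and rho = 0.65 (permutation p = 0.0177, adjusted p = 0.0177). This relation rested in part on the tumors with the highest levels, since r was 0.43 without libraries 6 and 7 (permutation p = 0.182). Without libraries 2 and 12, r was 0.82. The relation of TEK to TIE1 also passed the test, though nearer the threshold, with r = 0.59 (permutation test, p = 0.0357, adjusted p = 0.0357) and rho = 0.68 (permutation p = 0.0129, adjusted p = 0.0177). Without libraries 6 and 7 it did not pass (r = 0.35, permutation p = 0.292). Leaving out library 1, 6, 7, 8 or 10 alone was enough to take the adjusted p past 0.05. In these runs r was 0.44 without library 6 and between 0.55 and 0.57 without library 1, 7, 8 or 10. Without libraries 2 and 12, r was 0.59 with an adjusted permutation p of 0.0580. The differences between these correlations were not tested.

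**Figure D4:**
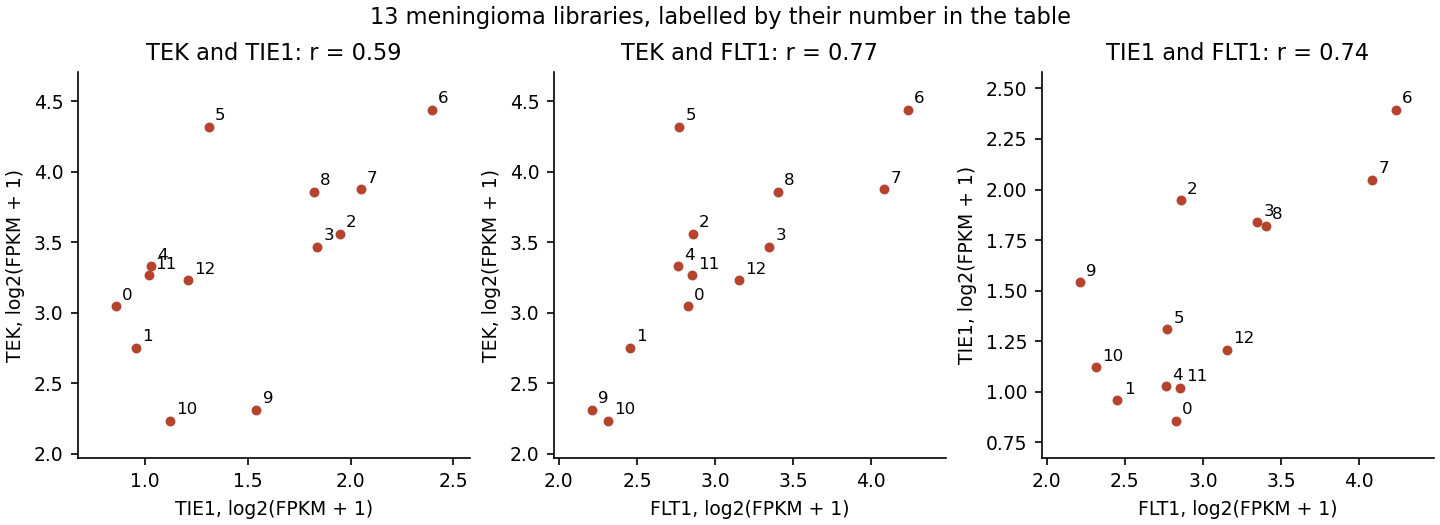
Levels of each pair of receptors in the 13 meningiomas as log2(FPKM + 1), each point labelled with its library number and each panel with Pearson's r. Libraries 6 and 7 lie at the upper right of each panel, and library 5 lies high for TEK beside middling TIE1 and FLT1.

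No relation of the receptors to sequencing depth passed the test. The correlation of each receptor with the log2 total of fragments was 0.18 for TEK, -0.16 for TIE1 and 0.18 for FLT1 (permutation test, adjusted p = 0.595 for each).

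As a description, the correlations were set among those of each receptor with all 14344 other tested genes over the same 13 tumors, which share their libraries and scaling. The interquartile range of r over all genes lay between -0.22 and 0.25 for TEK, between -0.21 and 0.23 for TIE1 and between -0.23 and 0.23 for FLT1. FLT1 ranked 19 among all genes by its correlation with TEK, and TEK ranked 30 for FLT1. FLT1 ranked 53 for TIE1 and TIE1 ranked 54 for FLT1. TIE1 ranked 378 for TEK and TEK 353 for TIE1.

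Most genes carry no symbol in the sources used, so that the closest partners of TEK (ENSCAFG00000009315, r = 0.85) and FLT1 (ENSCAFG00000003646, r = 0.86) are given by identifier only. Among genes with a symbol, the partners of each receptor differed. For TEK the 5 highest were CALCRL, the receptor for adrenomedullin in endothelium (r = 0.72, rank 56), the lipid transporter ABCA8 (0.65, rank 177), the protease TLL1 (0.63, rank 221), the sodium channel gene SCN7A (0.63, rank 244) and the matrix protein gene ADAMTSL1 (0.60, rank 328). TLL1 and ADAMTSL1 were low in the tumors, with means of 1.70 and 0.52 FPKM. For FLT1 they were the collagen COL14A1 (r = 0.80, rank 14), the endothelial adhesion molecule PECAM1 (0.78, rank 28), ADAMTSL1 (0.72, rank 91), ABCA8 (0.70, rank 121) and PLVAP (0.69, rank 142), which forms the diaphragms of fenestrated endothelium. COL14A1 was low in the tumors too, with a mean of 2.24 FPKM and a lowest value of 0.059 FPKM.

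TIE1 stood closer to endothelial markers. PECAM1 ranked 1 among all genes for TIE1 with r = 0.89, followed among genes with a symbol by DYSF, a membrane repair protein (0.84, rank 3), the endothelial sialomucin EMCN (0.83, rank 4), MMRN2 (0.78, rank 21) and KITLG, the ligand of the KIT receptor (0.75, rank 38). ABCA8 and ADAMTSL1 were shared by the lists of TEK and FLT1, and PECAM1 by those of TIE1 and FLT1.

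The same ordering appeared over the whole endothelial list. The median correlation with the 17 endothelial genes was 0.60 for TIE1, from -0.19 for PTGIR, the prostacyclin receptor, to 0.89 for PECAM1. It was 0.37 for FLT1, from 0.07 for SHE to 0.78 for PECAM1, and 0.18 for TEK, from -0.25 for SHE to 0.72 for CALCRL. Of the 17 genes, 11 stood in the top decile of all genes for TIE1, 6 for FLT1 and 4 for TEK. PTPRB, which acts on TEK itself, had a correlation of 0.31 with TEK, 0.68 with TIE1 and 0.41 with FLT1.

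Against the mean log2(FPKM + 1) of the endothelial list, TIE1 had r = 0.81 (permutation test, p = 0.00076, adjusted over the 12 tests of receptors with lists p = 0.00912) and rho = 0.81 (adjusted p = 0.0136). The value was 0.84 without libraries 7 and 12, the farthest from the median of the list mean. FLT1 had r = 0.62 (permutation p = 0.0240, adjusted p = 0.0960) and TEK r = 0.38 (adjusted permutation p = 0.366), which did not pass. On ranks FLT1 did not stand above TEK, with rho of 0.38 and 0.44 (adjusted permutation p = 0.343 for each). The r of FLT1 was 0.44 without library 7. Without libraries 2 and 12, r was 0.82 for TIE1, 0.72 for FLT1 (adjusted permutation p = 0.0703) and 0.38 for TEK. Whether TIE1 differed from TEK and FLT1 in its relation to the list mean was not tested.

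With the mural list mean TIE1 had r = 0.71 (permutation test, p = 0.00565, adjusted p = 0.0339), but the adjusted p of its rho was 0.0589. Without libraries 2 and 7, the farthest from the median of the list mean, r was 0.63 (permutation p = 0.0371, adjusted p = 0.223). Leaving out library 0, 1, 2, 5, 6 or 7 alone also took the adjusted p past 0.05, with r between 0.68 and 0.71. For FLT1 and TEK the correlations with the mural list mean were 0.53 and 0.37 (adjusted permutation p = 0.152 and 0.366). With the fibroblast list, r was 0.20 for TEK, 0.24 for TIE1 and 0.55 for FLT1 (adjusted permutation p = 0.623, 0.612 and 0.152). On FPKM without a log the fibroblast relation passed for TIE1 (r = 0.64, adjusted permutation p = 0.0469) and for FLT1 (r = 0.71, adjusted permutation p = 0.0253), while on log2(FPKM + 1) without library 7 the r of FLT1 was 0.27. With 6 immediate-early genes, which respond to handling and stress of the tissue, r was 0.04, -0.32 and -0.16 (adjusted permutation p = 0.898, 0.415 and 0.649). With 13 tumors only large correlations can pass, and a value that missed the threshold does not show that the genes vary independently.

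**Figure D5:**
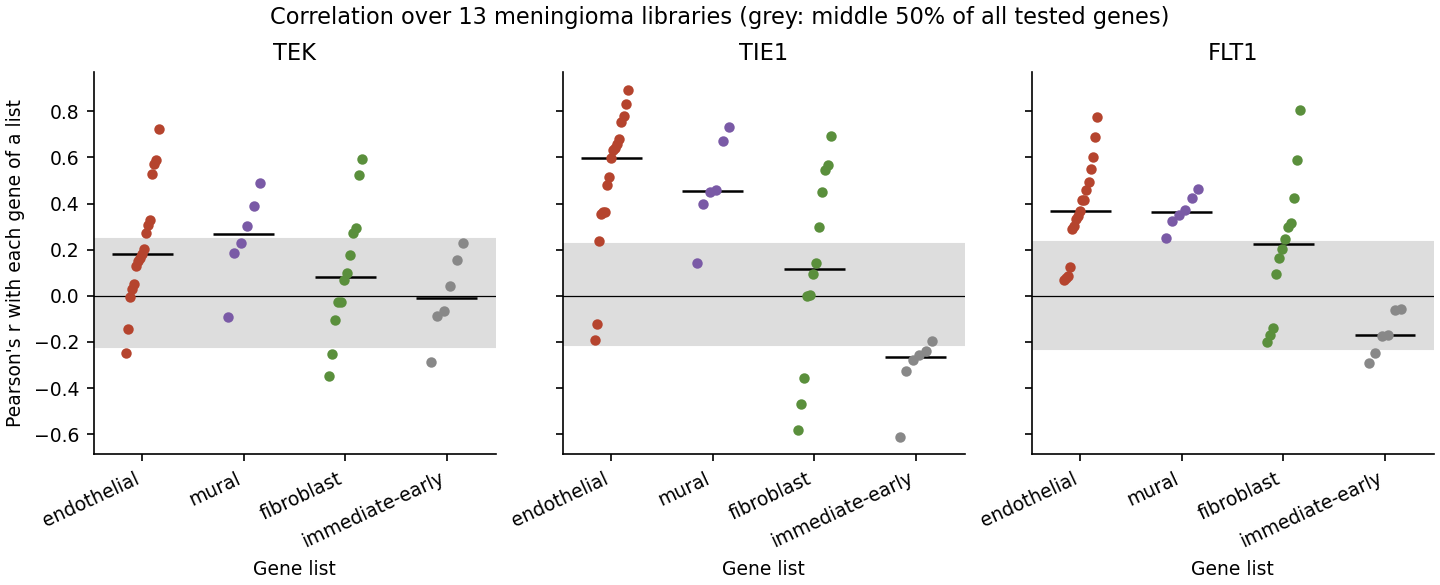
Pearson's r over the 13 meningiomas between each receptor and each gene of the endothelial (17), mural (6), fibroblast (12) and immediate-early (6) lists, with a bar at the median and the interquartile range of all tested genes in grey. The endothelial points lie highest for TIE1, with a median of 0.60 against 0.37 for FLT1 and 0.18 for TEK.

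As a description without a test, the partial correlation of each pair of receptors given the endothelial list mean was 0.74 for TEK with FLT1, beside the plain r of 0.77. It was 0.52 for TEK with TIE1, beside 0.59, and 0.52 for TIE1 with FLT1, beside 0.74. The list mean stands in for the endothelial level only roughly, and the part of endothelial content in the correlations was not tested. After the endothelial mean was regressed out, TEK stood 1.08 above its fitted value in library 5 and 0.75 above it in library 6, and had residuals of -1.10 and -1.16 in libraries 9 and 10 (log2 units). FLT1 stood 0.73 above in library 6 and 0.62 above in library 12, and had residuals of -0.88 and -0.76 in libraries 9 and 10. The residuals of TIE1 were smaller, from -0.50 in library 4 to 0.42 in library 6. On this scale, log2(FPKM + 1), the SD of TIE1 between tumors was also smaller, at 0.49 against 0.68 for TEK and 0.62 for FLT1. On log2 FPKM the SDs were 0.77, 0.76 and 0.70, so the residuals of the 3 genes are not directly comparable in size. Libraries 9 and 10, with the lowest TEK and FLT1, thus had endothelial means in the middle of the order, at ranks 5 and 6 of 13.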

How the data were processed

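RNAseq libraries of 13 canine meningiomas and 3 normal meninges, each from a different dog, were analysed. Per the labels and the paper's methods, the authors subtracted ribosomal RNA, made strand-specific libraries, sequenced single-end reads, trimmed them with cutadapt 1.8, discarded reads of ribosomal and small RNAs, aligned those remaining to CanFam3 with TopHat2 2.0.13 and ran Cuffdiff 2.2.1. The deposited table gives the estimated count of fragments per gene and library, a signal that the authors made by scaling these counts with library size factors, and FPKM, for which they also took transcript length into account. Its groups carry a letter only, with C for 13 libraries and N for 3, and C was taken as meningioma from these numbers and from the sample titles of the controls.

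Estimated counts (0.347% not whole) were rounded and compared with edgeR 4.0.16 in R 4.3.3 (quasi-likelihood test, TMM normalization, at least 10 fragments in at least 3 libraries, Benjamini-Hochberg adjustment). Standard errors were obtained from the fold change and its F statistic. Correlations were computed on log2(FPKM + 1) with numpy 2.4.6 and scipy 1.17.1, with 100000 random pairings for each permutation test. The spread given by counting assumes Poisson fragments and covers counting error only. The alternatives were DESeq2 1.42.0, limma 3.58.1 with a pseudocount of 1 or 0.1 on FPKM, other size factors, filters and scales, and libraries left out. The scripts were tested on simulated data.

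The genes TEK, TIE1 and FLT1 and the lists of pathway and marker genes were chosen with earlier results of these data known. Genes named are the 3 receptors, the pathway genes with an identifier, and for each receptor the 5 genes with a symbol and the highest r. The ends of list ranges were also named, after their values were seen. Symbols came from the study's supplementary lists, which pair 125 symbols with 124 identifiers, and genes without one were not analysed by name. Sequences and positions of the genes were not used here.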

Additional observations from a re-analysis of the deposited data

How the results depend on the processing

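The fold changes of TEK, TIE1 and FLT1 kept their direction under all alternatives run, between -2.61 and -2.27 for TEK, -3.45 and -2.72 for TIE1 and -3.20 and -2.69 for FLT1. DESeq2 called 1364 genes over the whole table, 702 of them lower, against 697 and 509 with edgeR. With each library left out in turn, 169 to 931 genes were called and 157 to 615 were called lower, the lowest counts coming without control library 2. Of the 10 pathway genes, 7 to 10 were called lower, a count added after seeing the data, and DESeq2 gave no adjusted p for THBS1. The correlation of TEK with FLT1 passed under all 19 alternatives (r from 0.69 to 0.92), and that of TIE1 with the endothelial list mean under all 20 (0.76 to 0.85). That of TIE1 with FLT1 passed in each of the 13 runs with 1 library left out (0.61 to 0.82) and failed without libraries 6 and 7 (0.43). TEK with TIE1 ranged from 0.44 to 0.70 with 1 library left out (adjusted p under 0.05 in 8 of 13), and failed without libraries 2 and 12 (0.59) and without libraries 6 and 7 (0.35). TIE1 with the mural list mean ranged from 0.68 to 0.81 with 1 library left out (adjusted p under 0.05 in 7 of 13), and failed on log2(FPKM + 0.1) (0.68), on TMM-normalized CPM (0.67), without libraries 2 and 12 (0.68) and without libraries 2 and 7 (0.63). FLT1 with the endothelial list mean ranged from 0.44 to 0.70 with 1 library left out, passed without library 9 or 12, and passed on FPKM without a log (0.77), as did the fibroblast list mean with TIE1 (0.64) and with FLT1 (0.71). The cause of these changes was not tested. No paired analysis was possible because tumors and controls came from different dogs and the libraries of the table carry no sample number. Depth limits TIE1 most, with as few as 12 fragments in a tumor.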
